A study of Mus musculus with 30 samples.

Results

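Spironolactone and bicalutamide, each given on top of hydralazine, were compared by bulk RNA-seq in the descending thoracic aorta of 60-day-old mice that model vascular Ehlers-Danlos syndrome (VEDS). The HS group received hydralazine with spironolactone and the HB group received hydralazine with bicalutamide, with 3 libraries in each group. The genes of interest were those that separated the groups, meaning that all 3 HS libraries lay above, or all 3 lay below, the 3 HB libraries in CPM (read counts scaled to a common library size, here by the trimmed mean of M-values, TMM). Of 12800 genes tested, 1761 separated the groups (13.8%), 788 with HS above HB (6.16%) and 973 with HS below HB (7.6%). If the 6 libraries were interchangeable, a share of 0.1 of the 20 splits into 3 and 3 would separate a gene. The count is therefore read against that share and not as a set of differing genes. No gene was called by edgeR's quasi-likelihood test with Benjamini-Hochberg adjustment (0.0%), while 855 (6.68%) were under 0.05 before adjustment. The smallest adjusted p by that test was 0.404. A second tool, DESeq2, called 34 of the same genes at an adjusted p of 0.05 or less (0.266%). Of these, 9 were higher in HS (0.0703%) and 25 lower in HS (0.195%). The DESeq2 shares are of all 12800 genes, 6702 of which got no adjusted p from it. Adjusted p-values printed for single genes are from DESeq2 unless said. A further tool, limma-voom, called 0.

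The series holds 30 libraries of descending thoracic aorta, and the 6 compared here were labelled Het, for 1 copy of Col3a1 carrying a missense change. According to the study's methods the mice were males and fat around the aorta was removed, and the labels' protocol adds that the adventitia was pulled off. All 6 mice drank hydralazine at 32 mg/kg/day from birth, and from day 21 their chow held spironolactone at 100 mg/kg/day in HS or bicalutamide at 50 mg/kg/day in HB. The doses of the second drug therefore differed, and the comparison is of 1 dose of each. Heterozygous mice on hydralazine alone (Hydral, 6 libraries) are given beside them as a reference, but that group mixed 2 ages that the labels do not give per library, so it was not age-matched. Per the study's methods, aortas were taken around midday and extracted in batches that each held 1 aorta of every group, but no label ties a library to its batch, so no batch could enter a fit.

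Type III collagen, the product of Col3a1, is a fibrillar collagen of the arterial wall, and VEDS is caused by changes in that gene. The androgen receptor and the mineralocorticoid receptor are nuclear receptors that bind related DNA elements once a steroid has entered their pocket. Bicalutamide is a non-steroidal antagonist of the androgen receptor. Spironolactone has a steroid skeleton and blocks both receptors. Hydralazine is a vasodilator that lowers blood pressure. In the aortic media, smooth muscle cells carry a contractile apparatus of actin, myosin and anchoring proteins, and they also make the surrounding matrix.

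The 6 libraries held between 6005995 and 8064586 estimated counts and between 15854 and 16293 genes with a count, and the biological coefficient of variation among them was 0.170. The small RNAs 7SL and 7SK took 11.1% to 15.4% of the counts. Along the first principal component, with 43.1% of the variance, HS replicate 1 (-33.4) and HS replicate 3 (44.9) stood farthest apart, and the second component, with 19.0%, held the HS libraries on the positive side and the HB libraries on the negative side. HB replicate 2 stood apart in heart muscle genes, as described with the cell type markers. In bulk tissue, fewer cells of a type and less RNA per cell cannot be told apart. The labels give neither litter nor day for a library, so p-values measure the spread between these samples. An exact permutation test of 3 libraries against 3 cannot give a two-sided p under 0.1, and none was used for single genes.

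**Figure D1:**
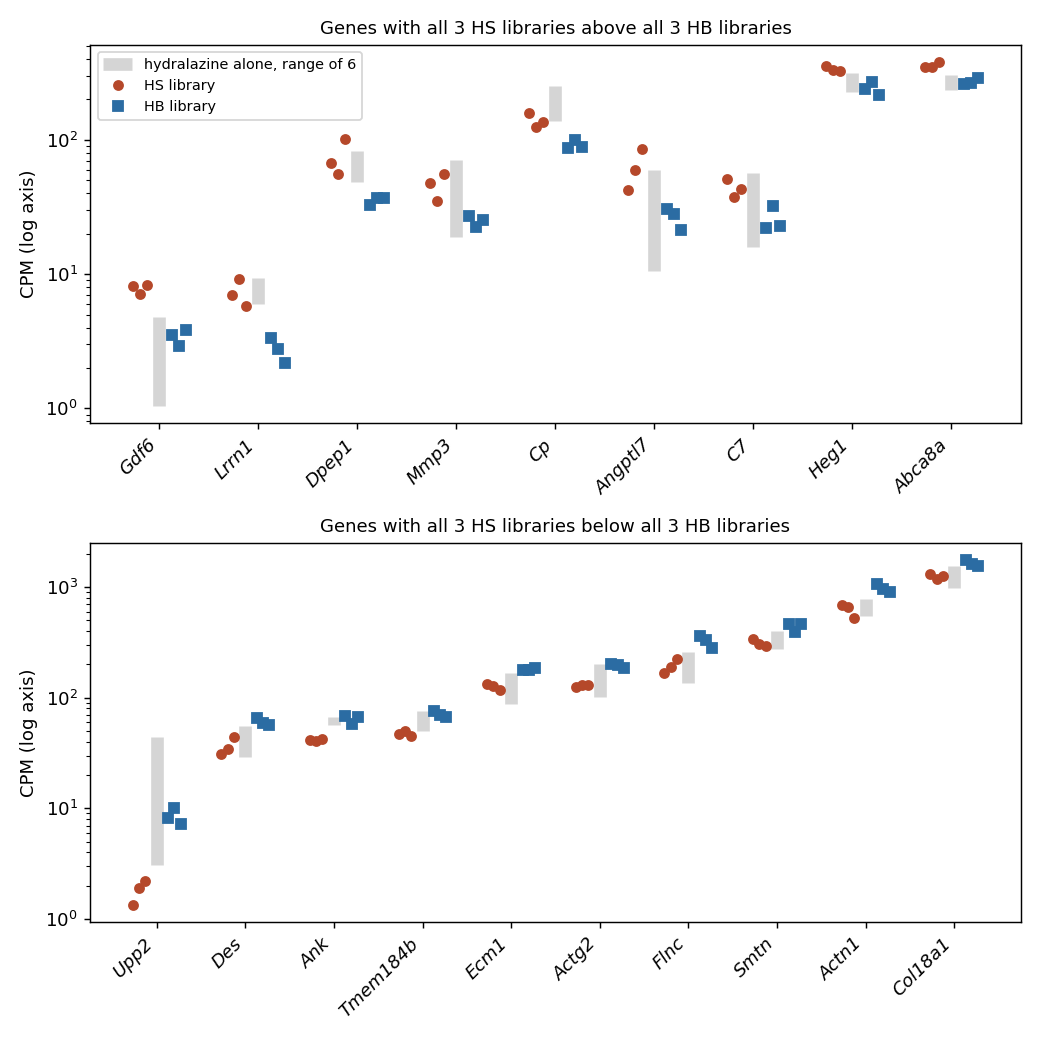
Levels of 19 genes that separated the groups, as CPM on a log axis, with a red circle for each HS library, a blue square for each HB library and a grey bar for the range of the 6 Hydral libraries. HS lies above HB for the 9 genes of the upper panel and below HB for the 10 genes of the lower panel.

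Genes of smooth muscle contraction had the highest share of separating members among the 27 process lists examined. Of 22 tested contractile genes, 21 were lower in HS than in HB, with a median log2 difference (HS minus HB) of -0.17, against 5928 of 12800 lower and a median of 0.017 over all tested genes. In 9 of the 22 (40.9%) every HS library lay below every HB library, against 7.6% of all tested genes. In 0 of the 22 every HS library lay above, against 6.16% of all tested genes. Neither statement rests on a call by edgeR, which called 0 of the list.

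The gene with the smallest DESeq2 adjusted p was Actg2, which encodes the gamma actin of smooth muscle. Its level was 124, 129 and 130 CPM in the HS libraries and 201, 196 and 184 CPM in the HB libraries, and the Hydral libraries ran from 102 to 202 CPM with a median of 143. The HS values lay within a few CPM of one another and clear of the HB values, while the Hydral libraries spanned both groups. The log2 difference was -0.60 ± 0.08 (SE, n = 3 and 3, DESeq2 adjusted p = 0.000325). By edgeR's quasi-likelihood test the adjusted p for Actg2 was 0.404.

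Des, which encodes the intermediate filament protein desmin, measured 31.0, 34.5 and 44.5 CPM in HS and 66.1, 58.5 and 57.0 CPM in HB, with a log2 difference of -0.72 ± 0.15 (SE, n = 3 and 3, DESeq2 adjusted p = 0.018). Smtn, which encodes the actin-associated protein smoothelin of contractile smooth muscle, stood at 338, 307 and 295 CPM in HS and at 467, 395 and 461 CPM in HB, a log2 difference of -0.49 ± 0.10 (SE, n = 3 and 3, DESeq2 adjusted p = 0.00852). All 3 Hydral medians, 143 CPM for Actg2, 42.4 CPM for Des and 337 CPM for Smtn, lay below the lowest HB library. Acta2, the smooth muscle alpha actin whose protein is a main part of the contractile filaments, read 9576, 9001 and 7326 CPM in HS against 11474, 10358 and 10180 CPM in HB. The gap was narrower than for Actg2, and the log2 difference was -0.30 ± 0.13 (SE, n = 3 and 3).

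The smooth muscle myosin heavy chain Myh11 had 7120, 8460 and 7804 CPM in HS and 9754, 8748 and 9344 CPM in HB, a log2 difference of -0.25 ± 0.11 (SE, n = 3 and 3). Mylk, the kinase that phosphorylates the myosin light chain, had 1195, 1216 and 1265 CPM in HS and 1638, 1386 and 1453 CPM in HB, a log2 difference of -0.28 ± 0.10 (SE, n = 3 and 3). For both genes the highest HS library came close to the lowest HB library. Myl9, Tpm2 and Cald1, which encode the regulatory light chain, a tropomyosin and caldesmon, were the other separating members, with log2 differences between -0.26 and -0.17. The transgelin gene Tagln (2934, 3089 and 3712 CPM in HS and 3640, 3333 and 3416 CPM in HB) and the calponin gene Cnn1 (1056, 1177 and 1232 CPM in HS and 1359, 1276 and 1189 CPM in HB) overlapped between the groups. Pln, which encodes the calcium pump inhibitor phospholamban and is also a gene of heart muscle, had the lowest log2 difference of the list, -1.68 ± 0.70 (SE), with overlapping groups. It read 4.34, 2.07 and 2.48 CPM in HS and 3.01, 20.7 and 4.94 CPM in HB, and without HB replicate 2 the log2 difference was -0.43 ± 0.43 (SE).

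**Figure D2:**
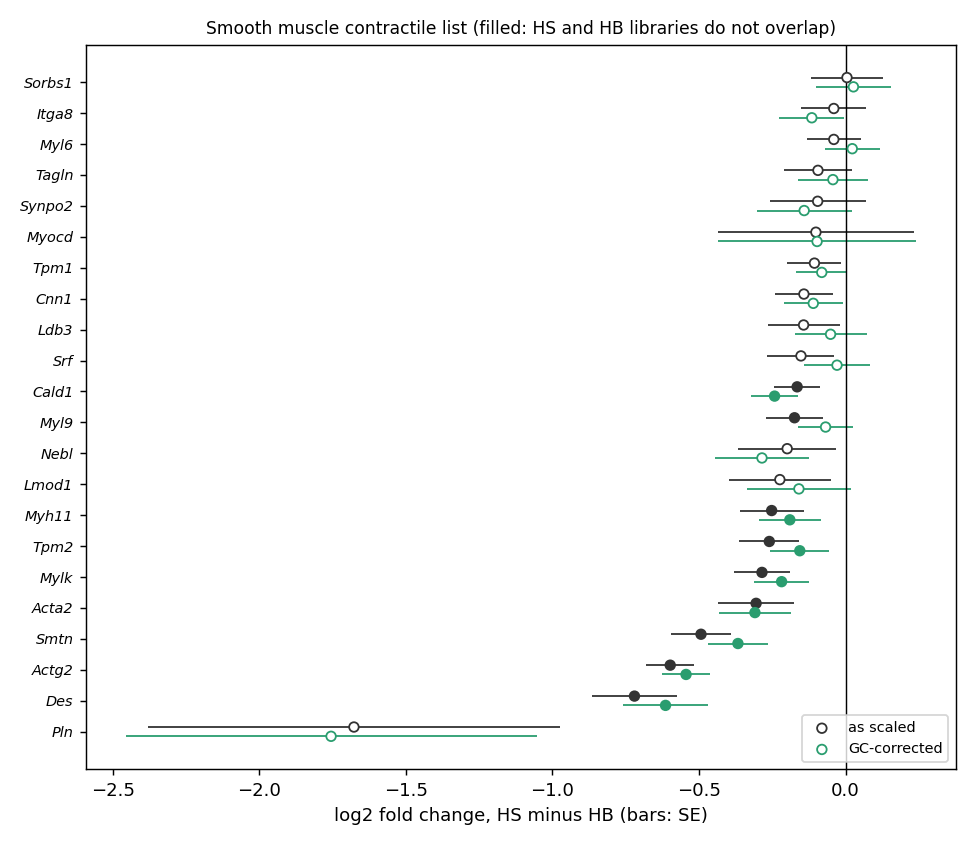
Log2 difference (HS minus HB) for the 22 tested genes of the contractile list, as scaled (black) and after the GC correction (green), with bars for the SE and filled points where the HS and HB libraries did not overlap. In black, 21 of 22 points lie left of 0 (lower in HS) and 9 are filled, and 8 are filled in green.

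Several further genes of the cytoskeleton and its attachment stood among the 25 that DESeq2 called lower in HS. They were chosen for description after their values were seen. Flnc, which encodes the actin crosslinker filamin C, measured 167, 191 and 224 CPM in HS and 359, 330 and 283 CPM in HB, a log2 difference of -0.74 ± 0.14 (SE, n = 3 and 3, DESeq2 adjusted p = 0.00095). Actn1, an alpha actinin that anchors actin filaments, stood at 686, 660 and 526 CPM in HS and at 1063, 958 and 896 CPM in HB, a log2 difference of -0.64 ± 0.12 (SE, n = 3 and 3, DESeq2 adjusted p = 0.00095). The lowest HB library was above every Hydral library for both genes, since the Hydral libraries reached 258 CPM for Flnc and 770 CPM for Actn1. Plec (plectin, a linker of filaments), Dmpk (a kinase of muscle) and Dysf (dysferlin, of membrane repair) were on the same side, with DESeq2 adjusted p-values of 0.0133, 0.0154 and 0.0396.

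The starts of 2 contractile genes are shown because the first holds a CArG box, the element bound by serum response factor, and the second holds the hexamer AGAACA, a core of steroid receptor elements. RefSeq (GRCm38.p6) gave a promoter window for 17 of the 22 contractile genes. The stretches run from 250 to 51 bases before the start site, on the plus strand, at chr2:156775214-156775413 for Myl9 and chr16:34784700-34784899 for Mylk, 5′ to 3′, with the CArG box or the hexamer in capitals.
Myl9: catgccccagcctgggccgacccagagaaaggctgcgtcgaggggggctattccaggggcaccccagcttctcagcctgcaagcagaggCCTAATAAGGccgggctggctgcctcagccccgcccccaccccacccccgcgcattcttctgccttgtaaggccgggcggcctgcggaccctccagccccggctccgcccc
Mylk: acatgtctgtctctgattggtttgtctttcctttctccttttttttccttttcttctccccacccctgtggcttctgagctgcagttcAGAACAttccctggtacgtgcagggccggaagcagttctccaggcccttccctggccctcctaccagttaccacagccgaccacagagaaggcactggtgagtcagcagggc
A CArG box was counted only as an exact CCWWWWWWGG, where W is A or T. Over the 250 bases before the start, on both strands, it stood in 5 of 17 contractile promoters (29.4%). The share over promoters of tested genes was 148 of 10214 (1.45%). Among the 7 separating contractile genes with a promoter this exact match stood in 1, Myl9. Stretches a base away from it, such as ccctatatgg in the Acta2 window, were not counted. The hexamer AGAACA stood in 4 of 17 contractile promoters (23.5%), 2 of them of separating genes (Acta2 and Mylk), and in 1345 of 10214 (13.2%). Promoters of all genes with HS above HB held a CArG box in 11 of 639 (1.72%) and those with HS below HB in 14 of 787 (1.78%). These letter matches describe the windows and were not tested as binding sites.

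Marker genes of cell types were summed for each library. The summed level of 8 smooth muscle markers was 22690.6, 23926.1 and 22505.8 CPM in HS and 29155.5, 26235.0 and 26785.7 CPM in HB, and 17975.6 to 28563.6 CPM in Hydral. All 8 were lower in HS and 4 separated the groups, namely Myh11, Acta2, Smtn and Mylk, which the contractile list also holds. Endothelial markers, 14 of 14 tested, summed to between 1172.3 and 1376.3 CPM in HS and between 941.6 and 1260.5 CPM in HB, overlapping. Of these, 10 were higher and 4 lower in HS, and 2 separated with HS above (Egfl7 and Nos3). Fibroblast markers summed to 5528.8 to 5931.2 CPM in HS and 5098.6 to 5645.7 CPM in HB, and also overlapped. Of 13 fibroblast markers, 11 were higher and 2 lower in HS. HS lay above HB in 1 (Mfap5), and in 4 after the GC correction. Over all tested genes HS lay above HB in 6.16% and below in 7.6%, and above in 5.04% after that correction. A lower smooth muscle share and less contractile RNA per cell cannot be told apart here.

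Heart muscle genes were present in the HB libraries. The summed level of 10 cardiomyocyte markers was 9.44, 15.9 and 9.40 CPM in HS and 21.9, 733 and 87.6 CPM in HB, with Hydral at 8.11 to 31.0 CPM. Myh6, the alpha myosin heavy chain of the heart, read 2.55, 2.86 and 0.261 CPM in HS and 7.68, 396 and 40.6 CPM in HB, a log2 difference of -6.33 ± 1.55 (SE, n = 3 and 3, DESeq2 adjusted p = 0.0154). HB replicate 2 carried most of this signal, and HB replicate 1 lay within the Hydral range. Tnnt2, Tnni3 and Myl4, of the same tissue, also separated the groups with HS below HB, while Actc1 overlapped. HB replicate 2 was the highest library for Tnnt2, Myl4 and Actc1. Without HB replicate 2 the log2 differences were -0.59 ± 0.10 for Actg2, -0.74 ± 0.17 for Des, -0.57 ± 0.11 for Smtn, -0.72 ± 0.16 for Flnc and -3.72 ± 0.85 for Myh6 (SE), and the contractile list had a median of -0.188 with 20 of 22 lower. Actg2, Des, Smtn and Flnc differed by nearly the same amount without that library. HB replicate 3, which stayed in, also lay above every Hydral library in summed heart markers (87.6 CPM). The part of heart tissue in these differences was not tested.

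Other tissues gave smaller or overlapping sums. Hepatocyte markers, 16 of 16 higher in HS by the fit and 0 separating, summed to 4596, 1702.2 and 540.6 CPM in HS, 1392.2 to 1884.8 CPM in HB and 4255.7 to 21234.5 CPM in Hydral. Erythroid markers reached 867, 300.7 and 327.2 CPM in HS against 311.2, 216.5 and 129 CPM in HB. White fat (1530.8 to 2609.5 CPM in HS and 1361.5 to 2130 CPM in HB), brown fat (222.5 to 521.5 and 247.5 to 517.6), macrophage (679.3 to 763.7 and 587.8 to 791), Schwann cell and neuron (217.8 to 253.6 and 227.8 to 249.1, with Th and Dbh at 0), skeletal muscle (3.82 to 8.99 and 7.18 to 25.5) and mesothelial sums (26.2 to 48.2 and 26.9 to 64.5) all overlapped. Lymphocyte markers were near 0 (1.70 to 2.25 CPM in HS and 1.796 to 4.11 CPM in HB, 0 of 17 tested, Cd3g at 0). Airway epithelium markers were also low, at 2.99, 2.39 and 10.1 CPM in HS and 0.668, 1.14 and 1.92 CPM in HB, with Sftpb at 0. The part of any of these tissues in the differences between HS and HB was not tested.

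The genes higher in HS were mixed in kind. Gdf6, a ligand of the bone morphogenetic protein family, measured 8.09, 7.16 and 8.22 CPM in HS and 3.51, 2.94 and 3.84 CPM in HB, a log2 difference of 1.18 ± 0.21 (SE, n = 3 and 3). Dpep1, a membrane dipeptidase, stood at 67.2, 55.5 and 102 CPM in HS and at 32.6, 36.9 and 36.8 CPM in HB, a log2 difference of 1.08 ± 0.21 (SE, n = 3 and 3, DESeq2 adjusted p = 0.00095). For Gdf6 the HS libraries lay above all 6 Hydral libraries, which reached 4.8 CPM, while for Dpep1 the HB libraries lay below all 6, whose lowest was 48.2 CPM. Mmp3, the matrix protease stromelysin, read 47.8, 35.2 and 55.9 CPM in HS and 27.1, 22.5 and 25.1 CPM in HB, a log2 difference of 0.90 ± 0.17 (SE, n = 3 and 3, DESeq2 adjusted p = 0.00791).

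Angptl7, a secreted angiopoietin-like protein, was at 41.9, 59.7 and 85.8 CPM in HS and 30.6, 28.1 and 21.4 CPM in HB, a log2 difference of 1.23 ± 0.26 (SE, n = 3 and 3, DESeq2 adjusted p = 0.00095). Its HS libraries were spread over a wide range, and the lowest of them was still above the highest HB library. Cp, which encodes the copper-carrying ferroxidase ceruloplasmin, had 159, 124 and 135 CPM in HS and 86.7, 98.8 and 89.0 CPM in HB against 137 to 253 CPM in Hydral, and its log2 difference was 0.61 ± 0.11 (SE, n = 3 and 3, DESeq2 adjusted p = 0.00646). For Cp all HB libraries lay below every Hydral library, and so did HS replicates 2 and 3. Lrrn1 (7.04, 9.23 and 5.74 CPM in HS and 3.34, 2.78 and 2.19 CPM in HB) and the adhesion receptor gene Adgrg2 (6.59, 6.68 and 6.26 CPM in HS and 4.01, 4.25 and 3.56 CPM in HB) separated at low levels, as did Rrp15 and Thap6 with log2 differences of 0.64 ± 0.16 and 0.68 ± 0.21 (SE). The remaining genes that DESeq2 called higher were C7, a terminal complement component (DESeq2 adjusted p = 0.0379), Heg1 (0.0156), Abca8a (0.0356), Slc25a34 (0.0154) and Hba-a1 (0.00095). They were named after their calls were seen, except Hba-a1.

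Some of these levels were uncertain because near-identical gene copies can split reads. Hba-a1, an alpha globin gene, was 256, 122 and 132 CPM in HS and 69.2, 81.5 and 77.2 CPM in HB, but summed with its copy Hba-a2 the groups overlapped (589.5, 221.5 and 200.3 CPM in HS and 250.2, 169.3 and 114.4 CPM in HB). The beta globins summed to 240.5, 65.9 and 119 CPM in HS and 44.8, 38.0 and 8.78 CPM in HB, and that sum separated them. Entpd4 (24.9, 17.5 and 28.8 CPM in HS and 9.19, 0 and 0 CPM in HB) and Entpd4b (81.8, 71.0 and 70.2 CPM in HS and 87.0, 98.3 and 91.3 CPM in HB) went opposite ways, and their sum overlapped.

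Outside the contractile list, Upp2 had the widest gap among genes lower in HS. This uridine phosphorylase gene read 1.35, 1.91 and 2.22 CPM in HS and 8.18, 10.1 and 7.27 CPM in HB, a log2 difference of -2.20 ± 0.28 (SE, n = 3 and 3), while Hydral ran from 3.09 to 44.2 CPM. Every HS library was below every Hydral library as well. Ank, a transporter of pyrophosphate, stood at 41.0, 40.9 and 41.9 CPM in HS and at 68.8, 57.6 and 66.4 CPM in HB, a log2 difference of -0.64 ± 0.10 (SE, n = 3 and 3, DESeq2 adjusted p = 0.00851), with Hydral at 57.1 to 67.3 CPM. HS again lay below both other groups. Ecm1, a secreted matrix glycoprotein, measured 134, 127 and 117 CPM in HS and 176, 179 and 185 CPM in HB, a log2 difference of -0.52 ± 0.09 (SE, n = 3 and 3, DESeq2 adjusted p = 0.00321). Here HB lay above every Hydral library, the highest of which was 167 CPM. Tmem184b had a log2 difference of -0.59 ± 0.10 (SE, DESeq2 adjusted p = 0.0125), and Pcdhgc5, Slc6a17, Coro6, Rilp and Sbk1 separated at lower levels, with log2 differences from -0.86 to -0.61.

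Extracellular matrix genes were divided. A list of 14 fibrillar and other collagen genes had 8 higher and 6 lower in HS (median 0.027, 0 above and 4 below). The 4 below were Col5a1 and the non-fibrillar collagen VI genes Col6a1, Col6a2 and Col6a3. Of 20 genes of the elastic fibre and its surroundings, 9 were higher and 11 lower (median -0.1, 1 above and 5 below). The 5 below were Fbln1, Ltbp3, Ltbp4, Fn1 and Tnxb, and the 1 above was Mfap5. Collagen folding and crosslinking genes had 8 and 13 of 21 (median -0.065, 0 above and 4 below). Basement membrane genes had 7 and 11 of 18 (median -0.111, 3 above and 2 below). Proteoglycans had 9 higher and 5 lower of 14 (median 0.198, 1 above and 2 below) and proteases with their inhibitors 13 and 10 of 23 (median 0.011, 3 above and 2 below). Here above and below count the members in which every HS library lay above, or below, every HB library, against 6.16% and 7.6% of all tested genes. After the correction for GC content the counts were 1 above and 2 below for the collagen list, the 2 being Col6a2 and Col6a3. They were 3 and 1 for the elastic fibre list, 0 and 1 for collagen folding and 4 and 2 for the basement membrane. Proteoglycans had 2 and 2 and proteases 2 and 4, against 5.04% and 5.83% of all genes.

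Col18a1, a basement membrane collagen, was among the genes DESeq2 called lower, with 1304, 1171 and 1263 CPM in HS and 1734, 1614 and 1554 CPM in HB, a log2 difference of -0.39 ± 0.09 (SE, n = 3 and 3, DESeq2 adjusted p = 0.0207). Fn1, encoding fibronectin, read 2159, 1791 and 1811 CPM in HS and 2439, 2640 and 2350 CPM in HB, a log2 difference of -0.37 ± 0.11 (SE, n = 3 and 3). For fibronectin, HB lay above all Hydral libraries, which reached 1952 CPM. Col4a3, a collagen IV chain, was on the other side, at 102, 101 and 129 CPM in HS and 81.3, 80.8 and 76.1 CPM in HB, a log2 difference of 0.48 ± 0.11 (SE, n = 3 and 3). The microfibril gene Mfap5 was also higher in HS (0.39 ± 0.13), and the collagen VI genes Col6a2 and Col6a3 (-0.37 ± 0.12 and -0.44 ± 0.15) and the small proteoglycan gene Bgn (-0.38 ± 0.10) were lower (log2 difference ± SE).

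Neither the mutated collagen nor elastin separated the groups. Col3a1 stood at 7146, 7281 and 5445 CPM in HS and 6984, 6015 and 5498 CPM in HB, a log2 difference of 0.10 ± 0.15 (SE, n = 3 and 3). Eln was at 5188, 5530 and 4237 CPM in HS and 4486, 4259 and 4187 CPM in HB, a log2 difference of 0.21 ± 0.12 (SE, n = 3 and 3). Hydral ran far wider for both genes, from 5446 to 15386 CPM for Col3a1 and from 3989 to 14284 CPM for Eln, in a group that mixed 2 ages.

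Steroid receptor genes did not separate the groups. Nr3c2, the mineralocorticoid receptor gene, was 30.4, 39.8 and 44.6 CPM in HS and 44.1, 40.5 and 38.9 CPM in HB, a log2 difference of -0.10 ± 0.15 (SE, n = 3 and 3). Nr3c1, the glucocorticoid receptor gene, had a log2 difference of 0.03 ± 0.10 (SE). Both intervals of about 2 SE include 0, and 0 of 13 steroid receptor genes separated (5 higher, 8 lower, median -0.057). Of 15 androgen-responsive genes, 8 were higher and 7 lower (median 0.035, 0 above and 1 below). Among all tested genes 6.16% lay above and 7.6% below, 13.8% in either direction.

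Of 20 genes that answer to the glucocorticoid or mineralocorticoid receptor, 15 were higher in HS (median 0.295). In 0 of the 20 all HS libraries lay above HB and in 2 below, against 6.16% and 7.6% of all tested genes. Fkbp5, a chaperone gene strongly induced by steroids through these receptors, read 11.7, 13.2 and 59.2 CPM in HS and 13.7, 28.6 and 9.73 CPM in HB, a log2 difference of 0.72 ± 0.65 (SE, n = 3 and 3). Sgk1, a kinase gene induced by both receptors, read 88.7, 69.5 and 155 CPM in HS and 104, 111 and 70.9 CPM in HB, a log2 difference of 0.14 ± 0.29 (SE, n = 3 and 3). In both genes HS replicate 3 was the highest library of all 6. Without that library Fkbp5 went to -0.47 ± 0.41 and the list's median to -0.236, with 15 of 20 lower.

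Lipogenesis and glycolysis genes lay mostly lower in HS. In lipogenesis 17 of 20 were lower (median -0.31, 0 above and 4 below) and in glycolysis and hypoxia 17 of 20 (median -0.156, 0 above and 5 below), where 7.6% of all tested genes lay below. After the GC correction 3 members of each list lay below, against 5.83% of all genes, with medians of -0.244 and -0.093. Fasn, the fatty acid synthase, measured 390, 412 and 119 CPM in HS and 554, 819 and 831 CPM in HB, a log2 difference of -1.26 ± 0.41 (SE, n = 3 and 3), with Hydral at 641 to 3052 CPM. Acly, which makes cytosolic acetyl-CoA, stood at 140, 181 and 111 CPM in HS and 190, 268 and 219 CPM in HB, a log2 difference of -0.65 ± 0.19 (SE, n = 3 and 3). HS lay below every Hydral library for Fasn and Acly, and HS replicate 3 was the lowest. Without HS replicate 3 the log2 differences were -0.87 ± 0.17 for Fasn, -0.49 ± 0.17 for Acly and -0.65 ± 0.24 for Elovl6 (SE), and the lipogenesis median was -0.143 with 14 of 20 lower.

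Among glycolytic genes, Gapdh read 338, 318 and 251 CPM in HS and 393, 402 and 396 CPM in HB, a log2 difference of -0.39 ± 0.12 (SE, n = 3 and 3). Aldoa, the muscle aldolase, read 288, 303 and 313 CPM in HS and 362, 402 and 370 CPM in HB, a log2 difference of -0.33 ± 0.09 (SE, n = 3 and 3). HS lay below all 6 Hydral libraries for both genes, and for Gapdh HB did so too, the lowest Hydral library being at 430 CPM. Fatty acid oxidation (13 higher and 9 lower of 22, median 0.084, 1 above and 0 below), cholesterol synthesis (8 and 11 of 19, median -0.016, 0 and 0) and the respiratory chain (11 and 13 of 24, median -0.022, 1 and 0) were close to even. Across all tested genes 6.16% lay above and 7.6% below.

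Clock genes varied within the groups as well as between them. Of 17, 5 were higher and 12 lower in HS (median -0.299, 2 above and 2 below, against 6.16% and 7.6% of all tested genes). Arntl, which encodes the activator BMAL1, stood at 55.7, 61.0 and 28.3 CPM in HS and 28.1, 28.2 and 16.3 CPM in HB, a log2 difference of 1.00 ± 0.31 (SE, n = 3 and 3). Nr1d1, which encodes the repressor REV-ERB alpha, stood at 26.1, 19.4 and 58.2 CPM in HS and 62.8, 71.7 and 106 CPM in HB, a log2 difference of -1.21 ± 0.38 (SE, n = 3 and 3). Within each group replicate 3 was the lowest for Arntl and the highest for Nr1d1, but replicate numbers do not pair the groups. The HS replicate 3 value of each gene nearly met the HB values. Dbp, an output gene of the clock, overlapped at 2.40, 3.18 and 26.1 CPM in HS and 19.0, 23.5 and 88.8 CPM in HB. Aortas were taken around midday per the study's methods, the time for each library was not given, and its part in these values was not tested.

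**Figure D3:**
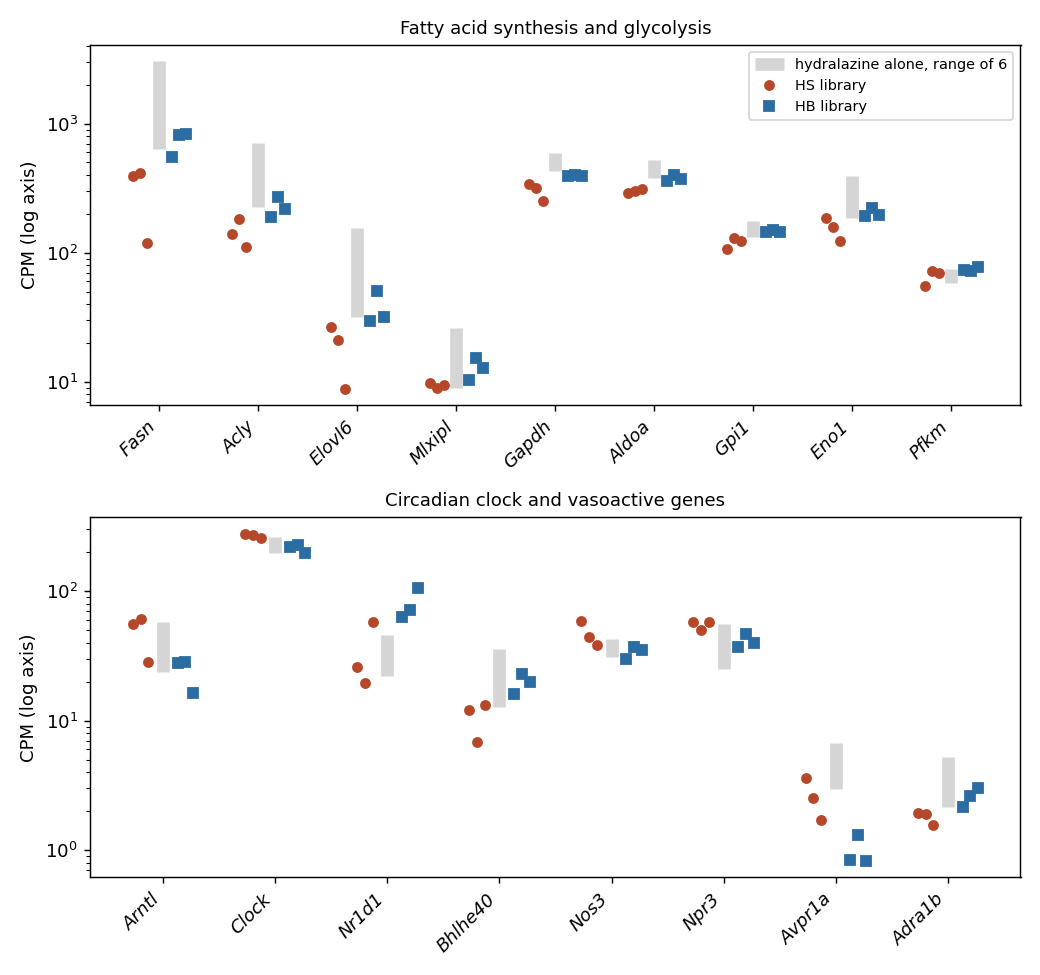
Levels of metabolic, clock and vasoactive genes in each HS (red) and HB (blue) library, as CPM on a log axis, drawn with a grey bar for the range of the 6 Hydral libraries and the replicates in order within each group. Fasn and Acly are lowest in the third HS point. HS lies above HB for Arntl and below it for Nr1d1.

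Ion channel and pump genes lay lower in HS in 15 of 21 (median -0.257, 0 above and 6 below, where 7.6% of all tested genes lay below). After the GC correction the median was -0.146 and 4 lay below, against 5.83% of all genes. Kcnj15, an inward-rectifier potassium channel, read 15.7, 16.7 and 15.0 CPM in HS and 20.9, 21.1 and 22.4 CPM in HB, a log2 difference of -0.44 ± 0.11 (SE, n = 3 and 3). Atp2a2, the calcium pump of the sarcoplasmic reticulum, had 670, 700 and 650 CPM in HS and 805, 878 and 776 CPM in HB, a log2 difference of -0.28 ± 0.09 (SE, n = 3 and 3). Kcnmb1, a subunit of the calcium-activated potassium channel of smooth muscle, had a log2 difference of -0.29 ± 0.10 (SE).

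Vasoactive signalling genes were split at 16 higher and 13 lower of 29 (median 0.029, 4 above and 1 below). The shares over all tested genes were 6.16% above and 7.6% below. Nos3, the endothelial nitric oxide synthase, had 59.3, 44.4 and 38.6 CPM in HS and 30.1, 36.9 and 35.2 CPM in HB, a log2 difference of 0.48 ± 0.17 (SE, n = 3 and 3). Npr3, the natriuretic peptide clearance receptor, stood at 58.0, 49.8 and 58.0 CPM in HS and 37.2, 46.9 and 39.6 CPM in HB, a log2 difference of 0.42 ± 0.12 (SE, n = 3 and 3). The gaps were narrow, as the lowest HS library was near the highest HB library for both. The vasopressin receptor gene Avpr1a (1.39 ± 0.42) was higher at a few CPM, and Adra1b (alpha-1B adrenergic, -0.53 ± 0.30) was lower (log2 difference ± SE).

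The remaining lists are given by their counts. Integrins and collagen receptors had 5 higher and 15 lower of 20 (median -0.071, 0 above and 2 below, Tln1 and Itgb8). TGF-beta and BMP signalling had 15 and 12 of 27 (median 0.054, 2 above and 3 below), and Wnt and Notch 9 and 11 of 20 (median -0.085, 1 and 1). Heat shock genes had 13 and 3 of 16 (median 0.176, 0 and 1), but the median was -0.126 without HS replicate 3. The unfolded protein response had 10 and 11 of 21 (median -0.007, 0 and 0) and immediate early genes 13 and 9 of 22 (median 0.077, 1 and 0, Klf2). Xenobiotic genes had 18 and 7 of 25 (median 0.128, 1 and 0, Cyp1b1), cell cycle genes 7 and 8 of 15 (median -0.012, 0 and 1), and inflammation 9 and 7 of 16 (median 0.029, 0 and 1, Ccl11). Over all 27 lists 78 of 525 tested genes separated (14.9%), against 13.8% of all tested genes.

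**Figure D4:**
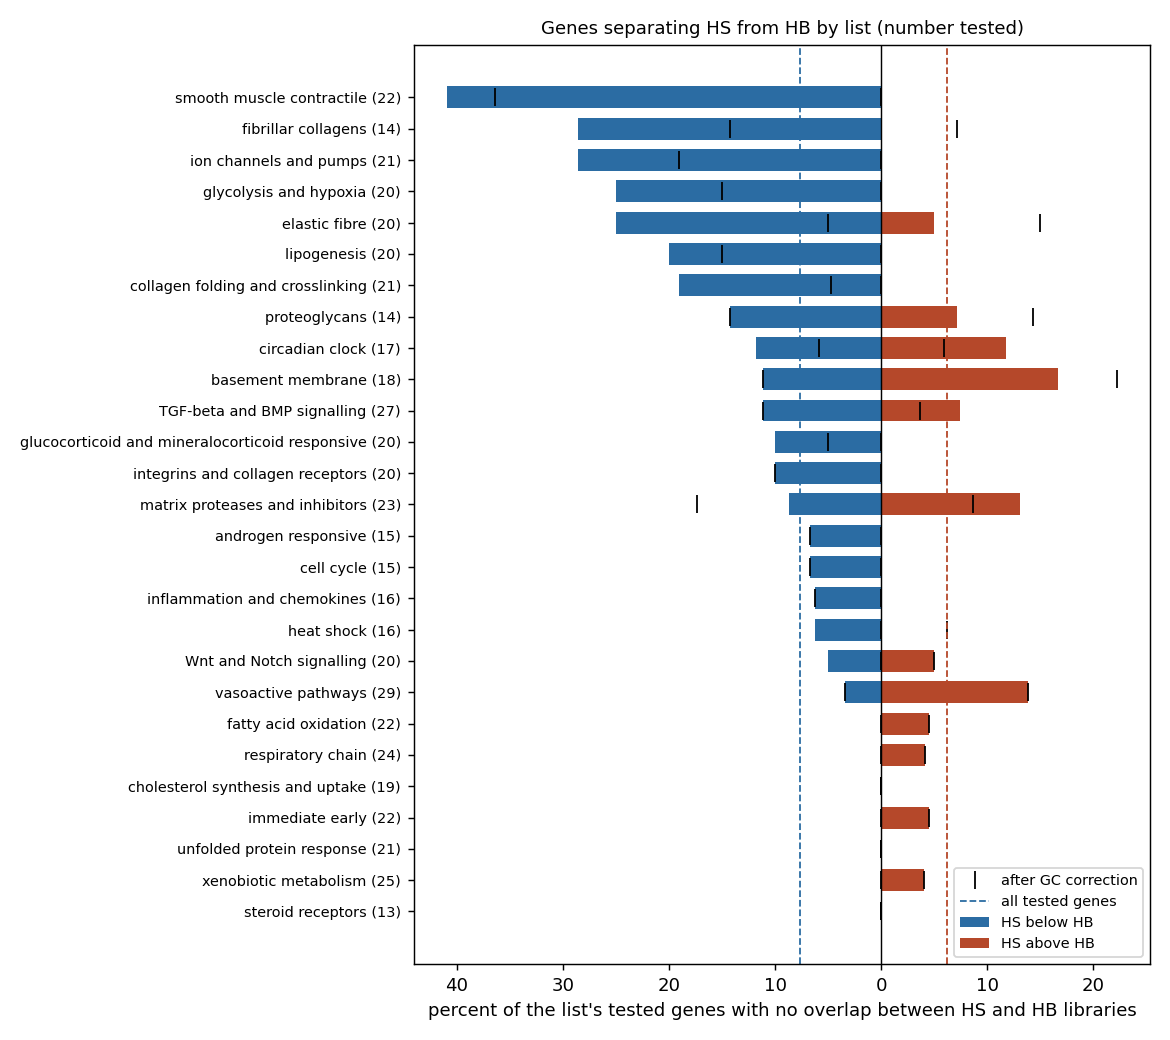
Percent of the tested genes in each of the 27 process lists with HS below HB (blue, to the left) or HS above HB (red, to the right), with black ticks for the share after the GC correction and dashed lines for all tested genes (7.6% and 6.16%). The contractile list has the highest share below, 9 of 22 (40.9%). The list drawn as fibrillar collagens also holds non-fibrillar chains such as those of collagen VI.

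The groups also differed by the base composition of the transcripts. Over 12554 genes with a known GC content, Spearman's rho between the log2 difference and GC content was -0.357, a description across genes that share the same 6 libraries. The median GC content was 45.9% for genes with HS above HB, 55.4% for genes with HS below and 50.0% for overlapping genes. From the lowest to the highest of 5 equal classes of GC content, the share with HS above went from 11.9% to 2.35% and the share with HS below from 1.15% to 17.4%. Measured within each library as the median deviation of the highest class minus that of the lowest (log2), the trend was -0.125 to -0.092 in HS, 0.068 to 0.146 in HB, 0.013 to 0.173 in Hydral and -0.204 to 0.094 in the untreated groups of both genotypes. HS and HB did not overlap in this measure, and its part in each gene's difference was not tested, though a correction was applied.

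After each library's GC trend was removed, 1365 of 12554 genes separated (10.9%), 633 above (5.04%) and 732 below (5.83%). The 10.9% stood near the share of 0.1 given above for interchangeable libraries. Of the 1761 genes, 1019 separated again in the same direction (57.9% of those before and 74.7% of those after). All 34 genes called by DESeq2 were among these, but DESeq2 was not run with the correction. The contractile list kept a median of -0.149 with 8 members below and 0 above, and only Myl9 of the 9 was lost. The log2 difference was -0.54 ± 0.08 for Actg2 and -0.62 ± 0.13 for Flnc (SE). Some called genes shrank more, such as Smtn from -0.49 to -0.37, Col18a1 from -0.39 to -0.26 and Plec from -0.38 to -0.25. Others grew, such as Dpep1 from 1.08 to 1.15. Eln separated only after the correction, at 0.33 ± 0.12 (SE). Arntl, Nr1d1, Eno1, Pfkm, Loxl1, Col5a1 and Col6a1 overlapped after it, and edgeR called 0 genes with 579 at an unadjusted p under 0.05 (4.61%).

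**Figure D5:**
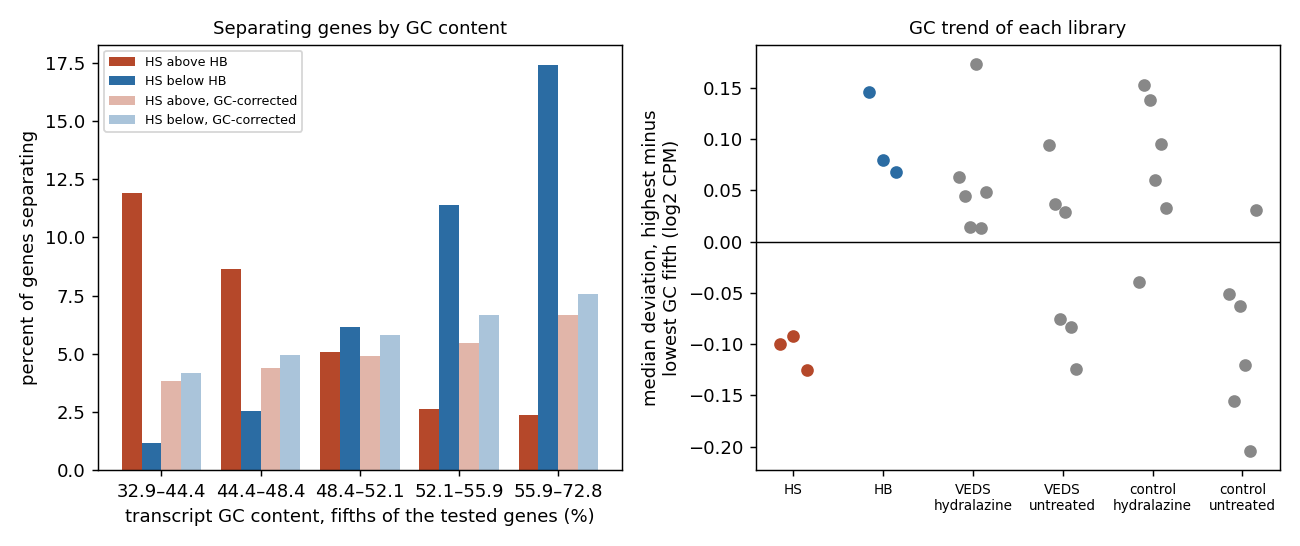
Left, percent of genes with HS above HB (red) and HS below HB (blue) in 5 equal classes of transcript GC content, before (dark) and after (light) the GC correction. Right, the GC trend of each library by group (log2 CPM, 1 point for each library). The share below runs from 1.15% to 17.4% before the correction and from 4.18% to 7.57% after it, and the HS libraries lie under 0 and the HB libraries over 0.

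The separating genes were also set against the range of the 6 Hydral libraries. Among the 788 genes with HS above HB, HS lay above all 6 Hydral libraries in 170 and HB lay below all 6 in 81. Among the 973 genes with HS below HB, HS lay below all 6 in 117 and HB lay above all 6 in 178. Over all 12800 tested genes HS lay above all 6 in 360 and below all 6 in 343 (5.49% outside the Hydral range). HB lay above all 6 in 404 and below all 6 in 586 (7.73% outside). The separating genes were picked by these same HS and HB levels, so their place against Hydral follows in part from that choice. Because the comparisons of HS and of HB with Hydral use the same Hydral libraries, their values are only set side by side. HS against Hydral gave 0 calls of 13304 by edgeR (0.0%, 1805 genes at an unadjusted p under 0.05, 13.6%) and 53 by DESeq2 (0.398%), and HB against Hydral gave 2 of 13266 by edgeR (0.0151%) and 575 by DESeq2 (4.33%).

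The 2 genes edgeR called in HB against Hydral are genes of the liver. Sult2a7, a sulfotransferase gene, read 4.01, 3.43 and 3.43 CPM in HB and 5.84, 2.55 and 0.522 CPM in HS, against 0 to 0.172 CPM in Hydral (edgeR's quasi-likelihood test with Benjamini-Hochberg adjustment, adjusted p = 0.00257). Mup15, of the major urinary proteins, read 12.9, 13.4 and 6.17 CPM in HB and 5.84, 2.07 and 0.13 CPM in HS, against 0 to 0.601 CPM in Hydral (the same test, adjusted p = 0.00606). The HB libraries lay above every Hydral library for both genes, while HS replicate 3, the lowest of the 6, lay within the Hydral range for Mup15. Near-identical copies of both gene families can share reads, and summed hepatocyte markers were higher in Hydral than in HB.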

How the data were processed

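Stranded total RNA libraries were made by the authors, who used CASAVA 1.8.4 and RSEM 1.3.0 on build mm39. Per gene, the deposited files hold expected counts, TPM and the lower and upper bounds of a TPM credibility interval (the upper one entered as a signal value). TPM and its bounds served as alternatives only, since 7SL took 60.3% to 65.3% of TPM. Expected counts (97.5% to 97.8% whole within 1e-06) were rounded. Groups followed the labels, with no pairing. HS against HB, and each against Hydral, were fitted in R 4.3.3 with edgeR 4.0.16 (filterByExpr, TMM, quasi-likelihood test, Benjamini-Hochberg). DESeq2 1.42.0 and limma 3.58.1 were alternatives, and other scalings, filters and left-out libraries were tried. DESeq2 gave no adjusted p for 6702 genes. GC content of GENCODE transcripts (98.1% of tested genes matched) was removed per library with a lowess of span 0.3. The scripts were tested on simulated data.

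Members and lists were chosen with earlier results of these data known. Genes were named as the 5 with the smallest p per direction, the 10 with the widest gap on log2(CPM + 0.5) at 5 CPM or more, up to 4 separating members per list, 7 fixed genes and markers of lists that differed, 98 in all (89 separated, 73 also after the GC correction). The GC correction, TPM intervals, totals without 7SL and 7SK, and the 12-library scaling were added after seeing the data. The study's own pair-wise tool was not used here. Some genes are not reported here.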

Additional observations from a re-analysis of the deposited data

Results flagged for a closer look

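Of 112 sets of 6 Hydral libraries tested for a library far from the rest, 4 stood out, and chance alone gives about 1 in 20. One Hydral library read 44.18 CPM for Upp2 against 3.093 to 12.27 CPM in the other 5. For Npr3 a library read 56.13 CPM against 25.24 to 35.16 CPM, and for Ccl11 a library read 2.401 CPM against 3.64 to 4.357 CPM. The airway gene Scgb3a2 was at 0.343 CPM in a single library and 0 in the others. The groups of 3 libraries are too small for this check.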

How the results depend on the processing

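No paired analysis was possible because the labels give no replicate number, litter or batch that ties an HS library to an HB library. The count of genes called in HS against HB was 0 by edgeR and stayed at 0 under every alternative run except DESeq2 (34), a fit over the 18 VEDS libraries (1, Ank), leaving out HS replicate 1 (2, Gm2007 and Mup19) and leaving out both HB replicate 2 and HS replicate 3 (1, Mup8). Leaving out 1 library gave 0 to 2 calls. The count of separating genes was 16 with a gap of at least 0.5 on the log2 scale, 209 where TPM intervals did not overlap, 5018 without both of those libraries and 2633 to 3510 without any 1, where fewer libraries make separation easier to meet. The median gap was 0.0652. On TPM as deposited 2257 genes separated, 47 with HS above and 2210 below (97.9% below), and 63.1% were below on library totals against 55.3% in the main scaling. The median log2 difference over all tested genes was -0.164 on TPM and 0.007 on TMM-scaled CPM, so differences on TPM are read relative to that shift.

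DESeq2 called 53 genes in HS against Hydral and 575 in HB against Hydral, and leaving out an HB library gave 1 to 2 calls by edgeR in the latter. In the process lists 78 genes separated, and 101 to 153 with 1 library left out. Of 97 named genes tested, 93 kept their direction over 10 alternatives. The exceptions were Nr3c1 (-0.057 after the GC correction, -0.023 to 0.101 with 1 library left out), Nr3c2 (-0.232 to 0.039), Fkbp5 (-0.47 without HS replicate 3, up to 1.28) and Sgk1 (-0.266 without HS replicate 3, up to 0.363). Without HS replicate 3 the median of the heat shock list was -0.126, and without HS replicate 1 that of fatty acid oxidation was -0.265. The cell cycle median was -0.313 without HS replicate 1, -0.237 without HB replicate 1 and 0.336 without HB replicate 2, and the respiratory chain median was -0.155, 0.086 and 0.111 without HS replicate 1, HS replicate 2 or HB replicate 2. The cause was not tested. With 3 libraries a group, depth and number limit what differences could be called.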
